A study of Mus musculus with 9 samples.

Results

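The genes described here are 37 genes of the brain's blood vessels: genes of endothelial identity, of the blood-brain barrier and of pericytes. They were taken by gene symbol, with no use of measured values, and all 37 were among the 19703 genes present in both sets of count tables. RNA came from the dLGN (the dorsal lateral geniculate nucleus), which passes visual signals from the eye to the cortex, of wild-type C57BL/6J mice of both sexes at postnatal day 27, all of which had lived in darkness from postnatal day 20 on. The 3 groups differed in the time of renewed light before dissection, which was 0, 1 or 8 h. Each group had 3 libraries from 3 mice, built from total RNA depleted of rRNA. The 0 h mice, which had the same dark rearing and no light, were the controls of both comparisons against 0 h.

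Endothelial cells line the vessels of the brain. They are sealed to each other by tight junctions of claudins, occludin and scaffold proteins, so that sugars, amino acids, lipids, vitamins and ions cross the barrier mainly through transporters, while efflux pumps return drugs and lipophilic compounds to the blood. Pericytes are embedded in the basement membrane around the capillaries, and they depend on platelet-derived growth factor from the endothelium. Several of the 37 genes are not confined to vessels: among them, Tjp1, Slc3a2, Slc7a5, Tfrc and Slc16a1 are also made by neurons or glia. The cells that held the RNA of any of the 37 genes, Slc2a1 included, were not identified in these bulk samples.

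Total counts per library ran from 5.73 to 22.6 M, so that 3 reads, the floor used here, stood for 0.524 CPM (reads scaled to library size) in the shallowest and 0.133 CPM in the deepest library. Such floors cover counting error only. Each of the 37 genes reached at least 3 reads in each of the 9 libraries, and 17 of them reached 100 reads in each. In a bulk sample, fewer cells of a type and less RNA per cell cannot be told apart. The libraries 0 h replicate 2 and 1 h replicate 1 stood apart by Neurod6, a gene of cortical and hippocampal neurons, at 18.2 and 13.8 CPM against 0.228 to 3.62 CPM in the other 7 libraries. Values without these libraries are given for those of the 37 genes called between 8 h and 1 h, for Cldn5 and for the genes with the smallest p at 1 h. They are not given for genes outside the 37, also where these are called below.

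In darkness, levels per exon length spanned a wide range. The highest levels at 0 h were 32.2 RPKM (reads per kilobase of exon, scaled to library size) for Slc3a2, the heavy chain of the large neutral amino acid transporter, and 29.0 RPKM for Slc2a1, the glucose transporter GLUT1. Then came 25.8 RPKM for Vtn, the pericyte product vitronectin, 23.0 RPKM for the transferrin receptor Tfrc and 22.5 RPKM for Cldn5, the main claudin of the barrier. Of all genes tested, 88.3% lay below Slc2a1 and 84.0% below Cldn5 on this scale. The endothelial adhesion genes Pecam1 (3.46 RPKM) and Cdh5 (2.91 RPKM) lay lower, and Anpep (0.667 RPKM) and Cldn1 (0.298 RPKM) were at the bottom. Neighbours in this order mostly did not separate: in 28 of 36 neighbouring pairs the ranges over the 3 libraries overlapped. The median coefficient of variation of the 37 genes across the 0 h libraries was 10.5%. It was 40.2% for Vwf and 46.0% for Cldn1.

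**Figure D1:**
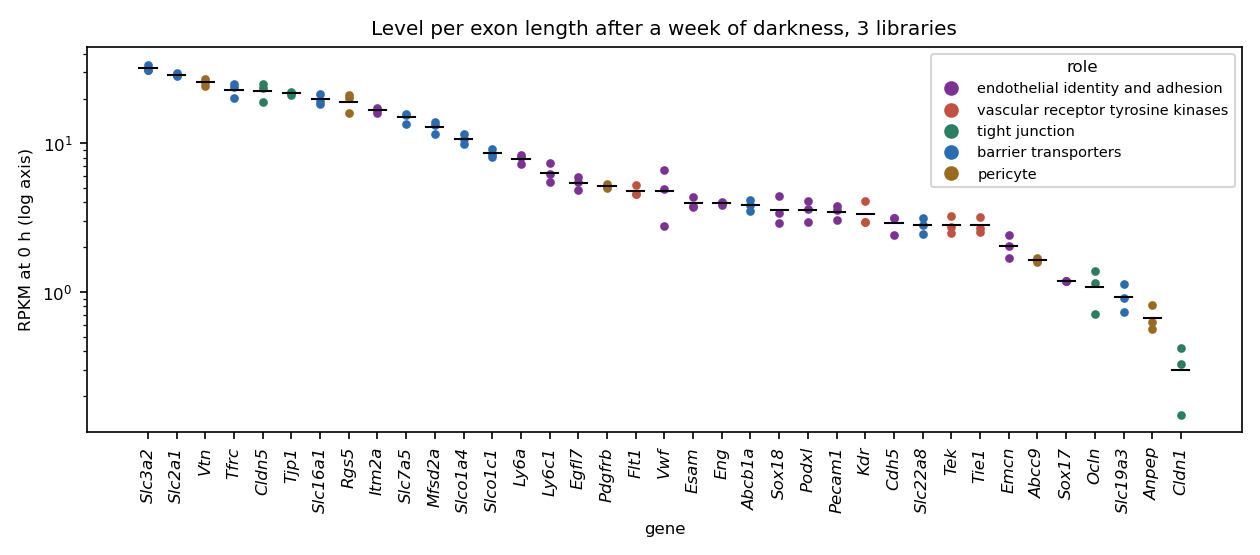
Level of the 37 genes at 0 h of light in RPKM on a log axis, with points for the 3 libraries and a bar for their mean, coloured by role. Slc3a2, Slc2a1, Vtn, Tfrc and Cldn5 hold the upper end, and Cldn1, at a mean of 0.298 RPKM, is lowest.

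After 8 h of light, 1 of the 37 genes passed the test against 0 h: Slc2a1 rose 1.56-fold. The share called over all 15330 genes tested was 0.587%, or 0.528% higher and 0.0587% lower. The next smallest p-values belonged to Cldn1, Mfsd2a and Ly6c1, which were higher, and to Cldn5, which was lower, and these 4 did not pass. An absolute log2 fold change under 0.3 was found in 28 of the 37 genes. The median absolute log2 fold change of the 37 was 0.129, beside 0.103 over all genes. The median log2 fold change of the 37 genes was 0.02, beside -0.00 over all genes. An unadjusted p under 0.05 was found for 8 genes, 5 of them higher and 3 lower. This is 21.6% of the 37, beside 10.2% of all genes (5.9% higher and 4.32% lower). In 9 of the 37 (5 higher, 4 lower), or 24.3%, the 8 h libraries did not overlap the 0 h libraries, beside 16.1% of all genes (9.09% higher and 7.01% lower). DESeq2 called 3 of the 37 higher (Slc2a1, Mfsd2a and Cldn1) and 1 lower (Cldn5), with 2.07% of all genes called.

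After 1 h of light, 0 of the 37 genes passed edgeR's quasi-likelihood test against 0 h, and the share called over all 15164 genes was 0.0132%. DESeq2 and limma-voom also called 0 of the 37. The median log2 fold change was -0.02, beside 0.00 over all genes, and 33 of the 37 genes had an absolute log2 fold change under 0.3. The median absolute log2 fold change of the 37 was 0.109, beside 0.0809 over all genes. With an unadjusted p under 0.05, Eng and Sox18 were higher and Pdgfrb was lower. These 3 are 8.11% of the 37, beside 3.2% of all genes (1.9% higher and 1.31% lower). Without both libraries with the most Neurod6, the unadjusted p-values of edgeR were 0.160 for Eng, 0.429 for Sox18 and 0.0589 for Pdgfrb, with log2 fold changes of 0.23, 0.19 and -0.27 (adjusted p = 0.999 in each). The groups did not overlap for 2 genes, Eng (higher) and Pdgfrb (lower), or 5.41% of the 37, beside 8.72% of all genes (4.6% higher and 4.12% lower). The comparisons of 1 h and of 8 h share the 0 h libraries, so their values are set side by side below and were not related to each other.

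Between 8 h and 1 h of light, 3 of the 37 genes passed and all 3 were higher at 8 h: Slc2a1, Mfsd2a and Cldn1. The share called over all 15586 genes was 0.603%, or 0.507% higher and 0.0962% lower. The median log2 fold change of the 37 was -0.04, beside -0.01 over all genes. An unadjusted p under 0.05 was found for 10 of the 37, with 6 higher and 4 lower, beside 8.9% of all genes (4.81% higher and 4.09% lower). The groups did not overlap for 9 of the 37, or 24.3%, with 6 higher and 3 lower, beside 15.3% of all genes (8.53% higher and 6.77% lower). DESeq2 called 3 of the 37 higher (Slc2a1, Mfsd2a and Ly6c1), with 1.63% of all genes called, and gave Cldn1 no adjusted p.

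**Figure D2:**
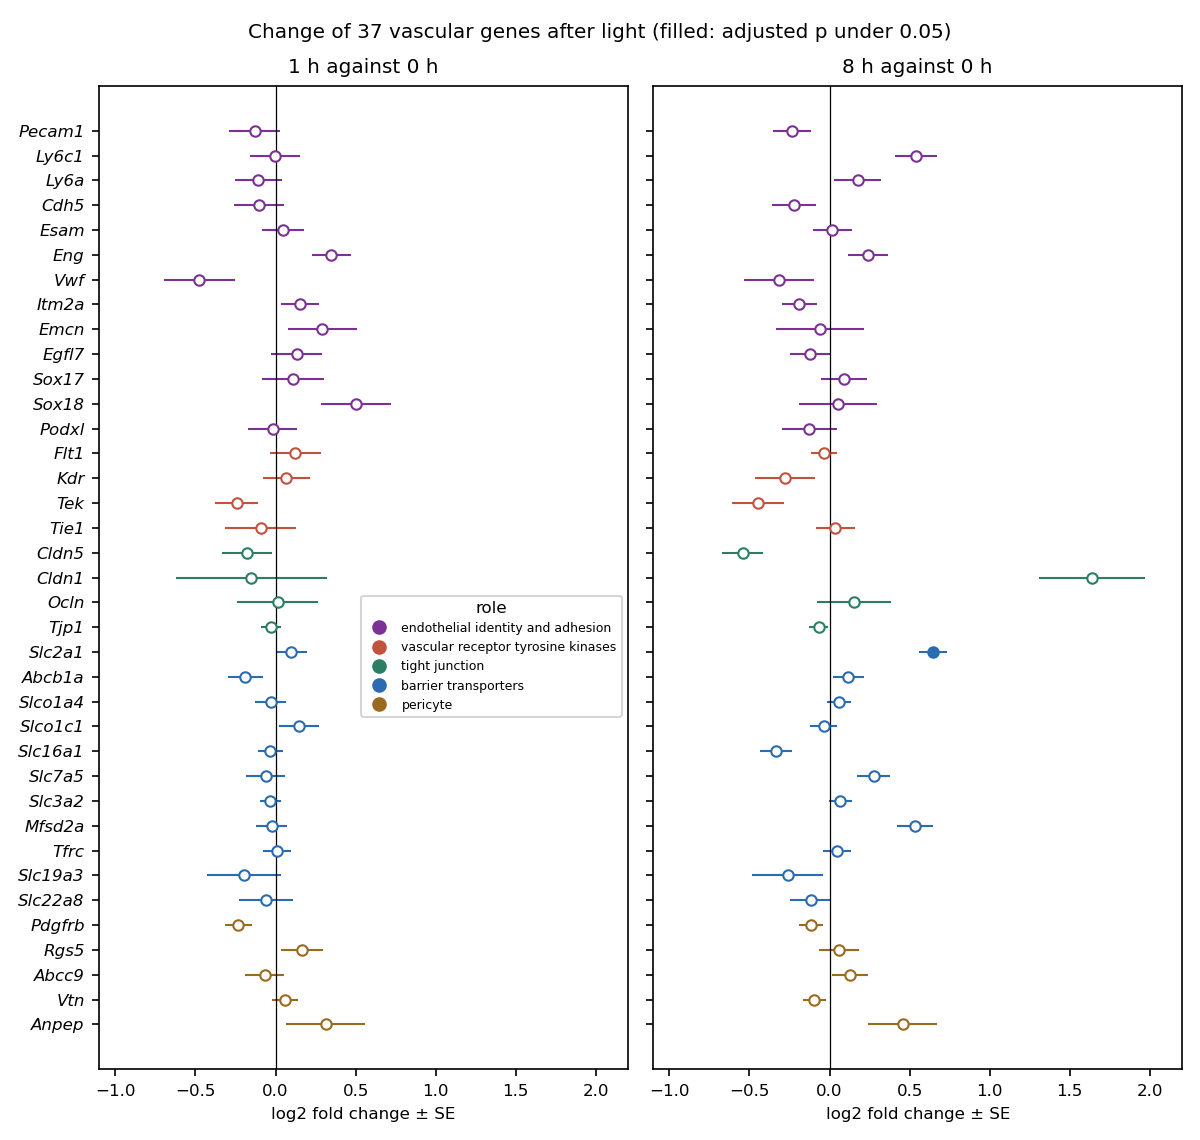
Log2 fold change ± SE of each of the 37 genes for 1 h against 0 h (left) and 8 h against 0 h (right), coloured by role, with 3 libraries per group and filled points for an adjusted p under 0.05. Slc2a1 at 8 h is the 1 filled point; Cldn1 lies farthest from 0 at 1.64 with an SE of 0.33.

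The starts of 4 genes are shown because 3 of them passed a test and Cldn5 had the most negative log2 fold change of the 37 at 8 h. Slc2a1 (Entrez gene 20525) lies on GRCm38 at chr4:119108745-119137330, plus strand, with 11 exons in the deposited tables. Mfsd2a (76574) lies on the same chromosome at chr4:122946850-122961196, minus strand, with 14 exons. Cldn1 (12737, 4 exons) lies at chr16:26356645-26371839, minus strand, and Cldn5 (12741, 1 exon) at chr16:18776847-18778262, plus strand. The sequences are the 250 bases before the transcription start in RefSeq on GRCm38.p6, each on its gene's strand. They span chr4:119108495-119108744 for Slc2a1, chr4:122961189-122961438 for Mfsd2a, chr16:26371840-26372089 for Cldn1 and chr16:18776597-18776846 for Cldn5. Capitals mark only the exact letters ACGTG, used here as the core of the hypoxia response element and read on both strands. No other spelling of the element was marked.
Slc2a1: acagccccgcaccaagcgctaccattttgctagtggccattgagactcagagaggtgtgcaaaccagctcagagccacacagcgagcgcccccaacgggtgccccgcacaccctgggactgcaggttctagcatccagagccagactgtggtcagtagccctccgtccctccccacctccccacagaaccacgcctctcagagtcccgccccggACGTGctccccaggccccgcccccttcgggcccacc
Mfsd2a: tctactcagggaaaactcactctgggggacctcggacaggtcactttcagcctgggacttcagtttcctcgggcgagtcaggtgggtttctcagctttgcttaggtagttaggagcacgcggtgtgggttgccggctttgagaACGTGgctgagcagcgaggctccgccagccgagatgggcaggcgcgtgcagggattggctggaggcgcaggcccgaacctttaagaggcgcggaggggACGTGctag
Cldn1: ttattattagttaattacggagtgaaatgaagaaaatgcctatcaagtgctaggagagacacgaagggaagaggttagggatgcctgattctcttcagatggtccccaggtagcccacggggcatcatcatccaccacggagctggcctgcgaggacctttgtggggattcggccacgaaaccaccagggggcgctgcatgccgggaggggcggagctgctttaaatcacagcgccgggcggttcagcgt
Cldn5: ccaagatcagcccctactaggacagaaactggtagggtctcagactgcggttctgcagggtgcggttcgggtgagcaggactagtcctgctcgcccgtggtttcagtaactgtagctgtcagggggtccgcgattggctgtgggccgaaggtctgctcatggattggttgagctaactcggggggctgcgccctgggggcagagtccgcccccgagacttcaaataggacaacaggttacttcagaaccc

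Counted from the RefSeq starts, the ACGTG core began 36 bases before Slc2a1, and 107 and 9 bases before Mfsd2a. In the deposited coordinates Mfsd2a starts at chr4:122961196, which lies inside its window, and the nearer core spans that base. The Cldn1 and Cldn5 windows held none. The core was present in 16.6% of 32851 windows of this length and in 5 of the 27 of the 37 genes that had a window. The glucocorticoid receptor motif AGAACA was found in 16.1% of windows and in 2 of the 27, and the AP-1 site TGANTCA in 6.75% and in 0 of the 27. The cAMP response element motif TGACG was found in 17.8% of windows and 3 of the 27 genes, the GC box GGGCGG in 32.7% and 12, the CCAAT box CCAAT in 33.8% and 7, and the TATA box TATAAA in 12.4% and 3. Both strands were read for each motif, and ACGTG and TGACG can overlap within TGACGTG. The windows shown also held motifs that are not marked. GC boxes began 45 and 20 bases before Slc2a1, 42 and 14 before Cldn1 and 45 before Cldn5. CCAAT boxes began 54 bases before Mfsd2a, and 118 and 88 before Cldn5. Such matches describe the letters of the windows only.

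Among the 11 barrier transporters, Slc2a1 rose at 8 h against both earlier times and Mfsd2a rose at 8 h against 1 h. Slc2a1, which carries glucose across the endothelium, measured 79.4, 76.6 and 77.2 CPM at 0 h, 85.4, 93.0 and 71.8 CPM at 1 h, and 123, 137 and 106 CPM at 8 h. The 8 h libraries all lay above every other library, and the 1 h libraries spread around the 0 h level. The mean was 77.7 ± 1.48 CPM (SD, n = 3) at 0 h, 83.4 ± 10.8 CPM at 1 h and 122 ± 15.4 CPM at 8 h. The log2 fold change was 0.64 ± 0.09 (SE) at 8 h against 0 h (adjusted p = 0.00927), 0.54 ± 0.10 at 8 h against 1 h (adjusted p = 0.0351) and 0.10 ± 0.10 at 1 h against 0 h (adjusted p = 1). The gene shares 105 of its 3506 annotated exonic bases with Gm12868 on the other strand, and as the strand setting of the counting is unknown here, reads in that stretch cannot be told apart.

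Mfsd2a, the lysophospholipid transporter that brings docosahexaenoic acid into the brain and restrains vesicle traffic in barrier endothelium, was also highest in the 8 h libraries. It measured 24.8, 28.7 and 29.98 CPM at 0 h, 26.3, 27.9 and 28.7 CPM at 1 h, and 40.4, 47.2 and 35.3 CPM at 8 h. All 8 h libraries were above all others, and 0 h and 1 h overlapped. The log2 fold change at 8 h was 0.56 ± 0.10 against 1 h (adjusted p = 0.0362) and 0.54 ± 0.11 against 0 h (adjusted p = 0.0785), and at 1 h against 0 h it was -0.02 ± 0.10. With DESeq2 the 8 h value against 0 h passed (adjusted p = 0.00268), as it did with no filter on low counts (adjusted p = 0.0427).

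Among the other 9 transporters none passed in the 3 comparisons. Slc16a1, the monocarboxylate transporter MCT1 for lactate and ketone bodies, measured 81.9, 85.0 and 95.4 CPM at 0 h, 87.2, 81.9 and 88.9 CPM at 1 h, and 78.2, 59.7 and 71.3 CPM at 8 h. Its 8 h libraries lay below all 6 others, with a log2 fold change of -0.34 ± 0.10 against 0 h (adjusted p = 0.237). Slc7a5, the light chain that pairs with Slc3a2 to carry large neutral amino acids, had 54.6, 55.6 and 47.4 CPM at 0 h, 49.7, 59.3 and 42.1 CPM at 1 h and 65.2, 55.1 and 71.1 CPM at 8 h. The groups overlapped, with a log2 fold change of 0.28 ± 0.10 at 8 h against 0 h (adjusted p = 0.371), while that of its partner Slc3a2 was 0.07 ± 0.07. Abcb1a, the efflux pump P-glycoprotein, measured 20.9, 19.3 and 22.8 CPM at 0 h, 18.7, 19.4 and 17.4 CPM at 1 h, and 21.5, 23.9 and 23.2 CPM at 8 h. Its 8 h libraries were above the 1 h libraries, by a log2 fold change of 0.30 ± 0.09 (adjusted p = 0.267), and they overlapped the 0 h libraries. Abcb1a shares 553 of its 5480 exonic bases with Gm42686 on the other strand.

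The remaining transporters stayed close to their dark levels in the fitted values, though such p-values do not show that they were the same. The organic anion transporters Slco1a4 and Slco1c1 (the latter carries thyroxine) had log2 fold changes at 8 h against 0 h of 0.06 ± 0.08 and -0.04 ± 0.08. Those of Tfrc, the iron import receptor, and of Slc22a8, an organic anion exporter, were 0.05 ± 0.09 and -0.12 ± 0.13. The thiamine transporter Slc19a3, at 3.18 ± 0.696 CPM at 0 h (SD, n = 3), had -0.26 ± 0.22. Over the 11 transporters the median log2 fold change at 8 h against 0 h was 0.06, with 7 of 11 above 0. Over all genes it was -0.00, with 7471 of 15330 above 0.

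**Figure D3:**
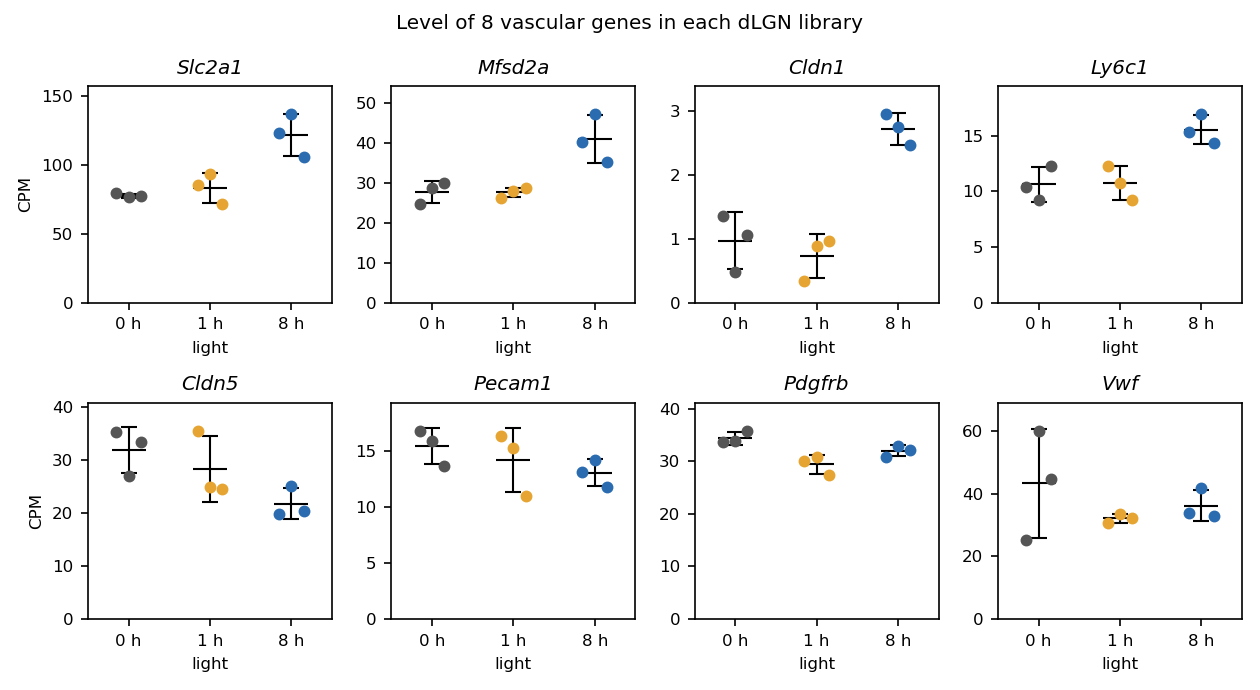
Level of 8 genes in CPM (linear axis from 0) in each of the 9 libraries by hours of light, with a bar for the mean and whiskers for the SD of 3 libraries. For Slc2a1, Mfsd2a, Cldn1 and Ly6c1 the 8 h points lie above all 0 h and 1 h points, and for Cldn5 they lie below all 0 h points.

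Of the 4 tight junction genes, Cldn1 passed between 8 h and 1 h, and none passed against 0 h. Cldn1, a claudin that is abundant in epithelia and scarce in brain endothelium, measured 1.36, 0.483 and 1.06 CPM at 0 h, 0.340, 0.883 and 0.969 CPM at 1 h, and 2.94, 2.74 and 2.46 CPM at 8 h. These levels rest on 8, 9 and 16 reads at 0 h, 3, 15 and 17 reads at 1 h, and 65, 51 and 43 reads at 8 h. The 8 h libraries were above all others, and the 0 h and 1 h libraries overlapped. The log2 fold change was 1.78 ± 0.35 at 8 h against 1 h (adjusted p = 0.0422), 1.64 ± 0.33 at 8 h against 0 h (adjusted p = 0.0667) and -0.15 ± 0.47 at 1 h against 0 h. Against 0 h it passed with DESeq2 (adjusted p = 0.0197) and with no filter on low counts (adjusted p = 0.0388).

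Cldn5 measured 35.3, 26.99 and 33.4 CPM at 0 h, 35.6, 25.0 and 24.5 CPM at 1 h, and 19.8, 25.1 and 20.4 CPM at 8 h. The 8 h libraries lay below all 0 h libraries, and the 1 h libraries were split between both ranges. Its log2 fold change was -0.54 ± 0.13 at 8 h against 0 h (adjusted p = 0.107), -0.18 ± 0.16 at 1 h against 0 h and -0.37 ± 0.15 at 8 h against 1 h (adjusted p = 0.492). Cldn5 passed against 0 h with DESeq2 (adjusted p = 0.00808) and without 0 h replicate 2, 1 of the libraries with the most Neurod6, where its log2 fold change was -0.66 (adjusted p = 0.0320). Ocln, the membrane protein occludin, had a log2 fold change of 0.15 ± 0.23 at 8 h against 0 h, at 5.88 ± 1.83 CPM at 0 h. Tjp1, the scaffold protein ZO-1, had -0.07 ± 0.06 and spanned no more than 1.14-fold between its lowest and highest library.

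Cldn1 is also made outside vessels, in the choroid plexus epithelium and the meninges. The summed level of 9 choroid plexus and ependymal markers was 28.4 to 41.9 CPM at 0 h, 32.3 to 33.4 CPM at 1 h and 28.2 to 33.5 CPM at 8 h. Its defining gene Ttr measured 0.824 to 3.06 CPM over the 9 libraries, and Aqp1, Folr1 and Kcnj13 had no read in at least 1 library. The summed level of 12 fibroblast and meningeal markers was 217 to 250 CPM at 0 h, 210 to 243 CPM at 1 h and 168 to 258 CPM at 8 h, and none of the 12 was at 0. Both 8 h ranges overlapped those at 0 h. Of those 12, Mgp, a matrix protein of vessel walls and fibroblasts, rose at 8 h against 1 h by 0.87 on the log2 scale (adjusted p = 0.0404), at 12.6, 18.5 and 15.3 CPM beside 7.59, 10.4 and 7.07 CPM at 1 h and 9.16, 10.2 and 9.40 CPM at 0 h. Most of the 12 went the other way: 4 had a log2 fold change above 0 at 8 h against 1 h, with a median of -0.11. At 8 h against 0 h, 3 of the 12 were above 0, with a median of -0.18. The part of such cells in the Cldn1 values was not tested.

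Genes of endothelial identity and adhesion showed no call among 13 in the 3 comparisons. The shares called over all genes were 0.0132% at 1 h and 0.587% at 8 h against 0 h, and 0.603% between 8 h and 1 h. At such shares, 0 calls in a short list says little about its genes, here and for the roles and lists below. Their median log2 fold change was 0.05 at 1 h and -0.06 at 8 h against 0 h. Pecam1, an adhesion molecule of the junctions between endothelial cells, measured 16.8, 15.9 and 13.6 CPM at 0 h, 16.3, 15.2 and 10.9 CPM at 1 h, and 13.1, 14.2 and 11.8 CPM at 8 h. Cdh5, the endothelial cadherin, measured 12.7, 9.82 and 12.7 CPM at 0 h, 11.1, 12.2 and 9.29 CPM at 1 h, and 10.5, 10.5 and 8.98 CPM at 8 h. The groups overlapped for both, with log2 fold changes at 8 h against 0 h of -0.24 ± 0.12 (adjusted p = 0.539) and -0.22 ± 0.14 (adjusted p = 0.640).

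Ly6c1, a surface antigen of brain capillary endothelium, measured 10.3, 9.23 and 12.3 CPM at 0 h, 12.2, 10.8 and 9.17 CPM at 1 h, and 15.3, 16.9 and 14.4 CPM at 8 h. The 8 h libraries were above all others, but the log2 fold change of 0.54 ± 0.13 against 0 h did not pass (adjusted p = 0.126), nor did the 0.55 ± 0.14 against 1 h (adjusted p = 0.140). Ly6c1 (chr15:75044018-75048837, minus strand) has a close paralogue in Ly6c2, and the treatment of reads common to both is unknown here, so its level is uncertain. The related antigen Ly6a had a log2 fold change of 0.18 ± 0.15 at 8 h.

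At 1 h the 2 endothelial genes with the smallest p were Eng and Sox18. Eng, the transforming growth factor beta co-receptor endoglin, measured 14.9, 14.2 and 14.8 CPM at 0 h, 21.1, 19.1 and 16.1 CPM at 1 h, and 18.5, 19.3 and 14.1 CPM at 8 h. Its 1 h libraries were above all 0 h libraries, while at 8 h 1 library lay just below them, and the log2 fold changes were 0.35 ± 0.12 and 0.24 ± 0.13 (adjusted p = 1 and 0.556). Eng shares 61 exonic bases with the protein-coding gene Fpgs. Sox18, an endothelial transcription factor, measured 7.12, 4.72 and 5.49 CPM at 0 h, 10.2, 7.83 and 6.21 CPM at 1 h, and 6.98, 6.60 and 3.78 CPM at 8 h. These groups overlapped, and the log2 fold changes were 0.50 ± 0.22 at 1 h (adjusted p = 1) and 0.05 ± 0.24 at 8 h. Its relative Sox17, which shares 804 of its 4772 exonic bases with Gm37587 on the other strand, had 0.11 ± 0.19 and 0.09 ± 0.15.

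Vwf, the clotting factor stored in endothelial granules, measured 25.3, 60.0 and 44.6 CPM at 0 h, 30.6, 33.4 and 32.3 CPM at 1 h, and 34.0, 41.9 and 32.7 CPM at 8 h. The 0 h libraries held both the lowest and the highest value. At 1 h the log2 fold change was -0.48 ± 0.22 (adjusted p = 1), without 0 h replicate 2 it was -0.17, and without 0 h replicate 1 it was -0.71 (edgeR's unadjusted p = 0.000283, adjusted p = 0.643). The other 5 genes of this role had log2 fold changes at 8 h against 0 h between -0.19 ± 0.11 (Itm2a) and 0.02 ± 0.12 (Esam, an adhesion molecule). Of these, Egfl7, a secreted vessel factor, had -0.12 ± 0.13, and of its 3581 exonic bases it shares 264 with the protein-coding gene Gm20532 on the same strand, 64 with Agpat2 on the other strand and 73 with Mir126a. The sialomucins Emcn and Podxl had -0.06 ± 0.28 and -0.13 ± 0.17.

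Among the 4 vascular receptor tyrosine kinases, 0 passed in the 3 comparisons. Tek, the angiopoietin receptor TIE2, measured 15.9, 12.2 and 13.3 CPM at 0 h, 12.7, 11.2 and 10.9 CPM at 1 h, and 10.7, 11.5 and 7.72 CPM at 8 h. Its 8 h libraries lay below all 0 h libraries, and 1 h overlapped both. Relative to 0 h, the log2 fold change was -0.24 ± 0.14 at 1 h (adjusted p = 1) and -0.45 ± 0.16 at 8 h (adjusted p = 0.356). Tie1, its co-receptor, had 0.04 ± 0.12 at 8 h, and the receptors of vascular endothelial growth factor, Flt1 and Kdr, had -0.03 ± 0.08 and -0.28 ± 0.19.

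Pericyte genes gave 0 calls among 5. Pdgfrb, the receptor through which pericytes are held at the vessel, measured 33.6, 33.8 and 35.8 CPM at 0 h, 30.1, 30.8 and 27.4 CPM at 1 h, and 30.9, 33.0 and 32.1 CPM at 8 h. The 3 groups did not overlap, with 1 h lowest, 8 h between and 0 h highest, but the log2 fold changes against 0 h were -0.23 ± 0.09 at 1 h (adjusted p = 1) and -0.11 ± 0.07 at 8 h (adjusted p = 0.649). Rgs5, a regulator of G-protein signalling abundant in pericytes, measured 28.8, 36.4 and 38.4 CPM at 0 h, 46.2, 38.4 and 34.2 CPM at 1 h, and 38.5, 40.9 and 30.6 CPM at 8 h. These groups overlapped, with log2 fold changes of 0.16 ± 0.13 and 0.06 ± 0.12. Abcc9, the regulatory subunit of the pericyte potassium channel, and Vtn had 0.13 ± 0.11 and -0.10 ± 0.07 at 8 h. Abcc9 shares 158 of its 8373 exonic bases with the antisense gene 5330439B14Rik. Anpep, aminopeptidase N, measured 2.37, 2.15 and 3.11 CPM at 0 h, 3.62, 3.41 and 2.62 CPM at 1 h, and 3.76, 3.597 and 3.20 CPM at 8 h. Its 8 h libraries were just above the 0 h libraries, with a log2 fold change of 0.46 ± 0.21 (adjusted p = 0.507).

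**Figure D4:**
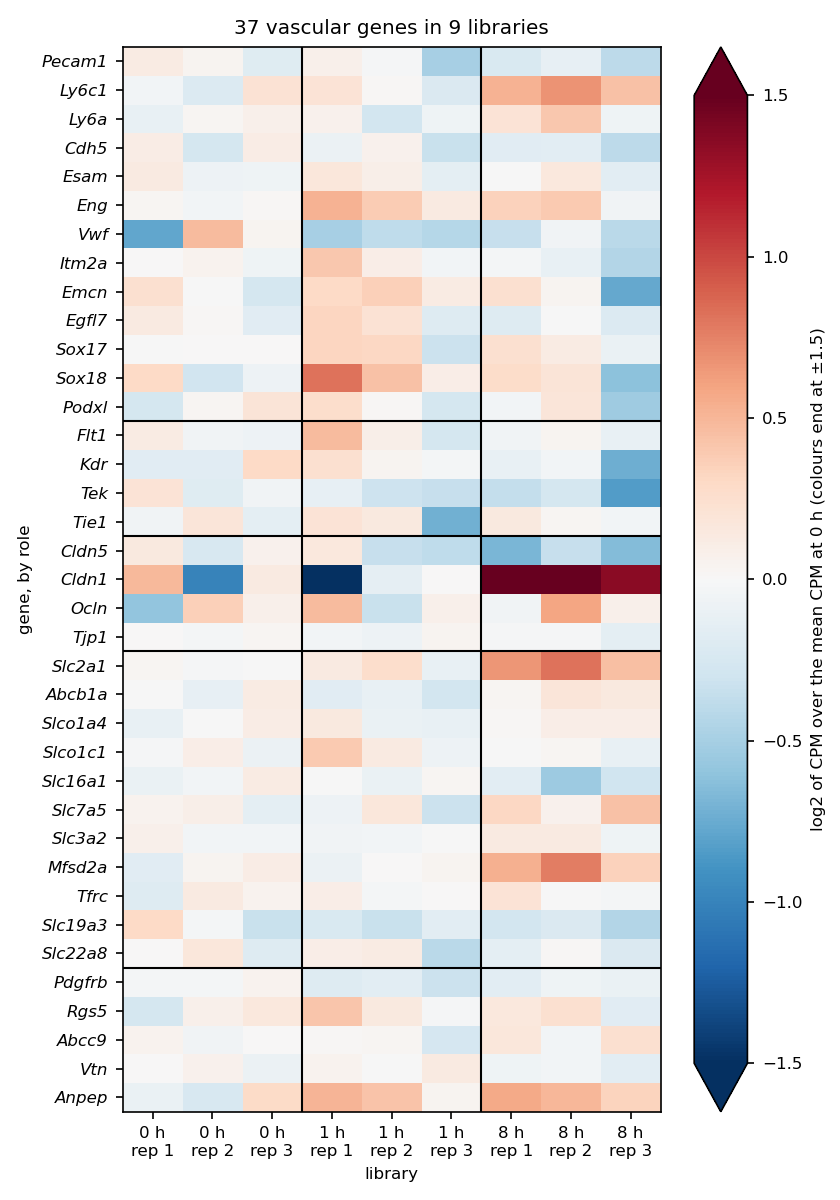
Log2 of each gene's CPM over its mean at 0 h in the 9 libraries, with genes ordered by role, horizontal lines between roles, vertical lines between light times and colours that end at ±1.5. Among the genes red in all 3 libraries at 8 h are Slc2a1, Mfsd2a, Cldn1, Ly6c1 and Anpep, and among those blue in all 3 are Cldn5, Tek and Slc16a1.

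The amount of vessel in a dissection could differ between libraries, so levels were also set against 6 endothelial genes of the same library (Cdh5, Tie1, Esam, Egfl7, Pecam1 and Emcn). The summed level of these 6 was 59.0 to 67.9 CPM at 0 h, 49.9 to 70.0 CPM at 1 h and 52.6 to 62.4 CPM at 8 h, and it was lowest in 1 h replicate 3 and 8 h replicate 3. Relative to their geometric mean, Slc2a1 had log2 ratios of 2.95, 3.03 and 3.15 at 0 h, 3.00, 3.15 and 3.21 at 1 h, and 3.73, 3.86 and 3.81 at 8 h. The mean ratio was 0.76 higher at 8 h than at 0 h on the log2 scale. For Mfsd2a the mean log2 ratio was 0.67 higher at 8 h, for Ly6c1 0.67 and for Cldn1 1.73, and in each the 8 h libraries were above all others. For Cldn5 the mean log2 ratio was -0.43 at 8 h relative to 0 h, and for Tek -0.36, and in both the 8 h libraries were below all 0 h libraries.

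Over the 31 genes outside this reference, 9 had 8 h ratios above all 0 h ratios and 2 had ratios below. On the same ratio scale, the 8 h libraries lay outside the 0 h libraries for 13.1% of all 15324 genes (11.8% higher and 1.32% lower). The median log2 fold change of the 6 reference genes themselves was -0.09 at 8 h against 0 h. The 9 also included Eng, Anpep, Ly6a, Sox17 and Slc3a2. With the log2 reference level as a covariate in the edgeR fit, Slc2a1 passed at 8 h against 0 h with a log2 fold change of 0.72 ± 0.08 (adjusted p = 0.00565). Mfsd2a (0.58 ± 0.12, adjusted p = 0.108) and Cldn1 (1.70 ± 0.36, adjusted p = 0.113) did not pass in that fit, nor did Cldn5 (-0.50 ± 0.14, adjusted p = 0.241). At 8 h against 1 h with this covariate, Slc2a1 (0.63, adjusted p = 0.00175) and Mfsd2a (0.57, adjusted p = 0.0412) passed and Cldn1 (1.76, adjusted p = 0.0556) did not.

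**Figure D5:**
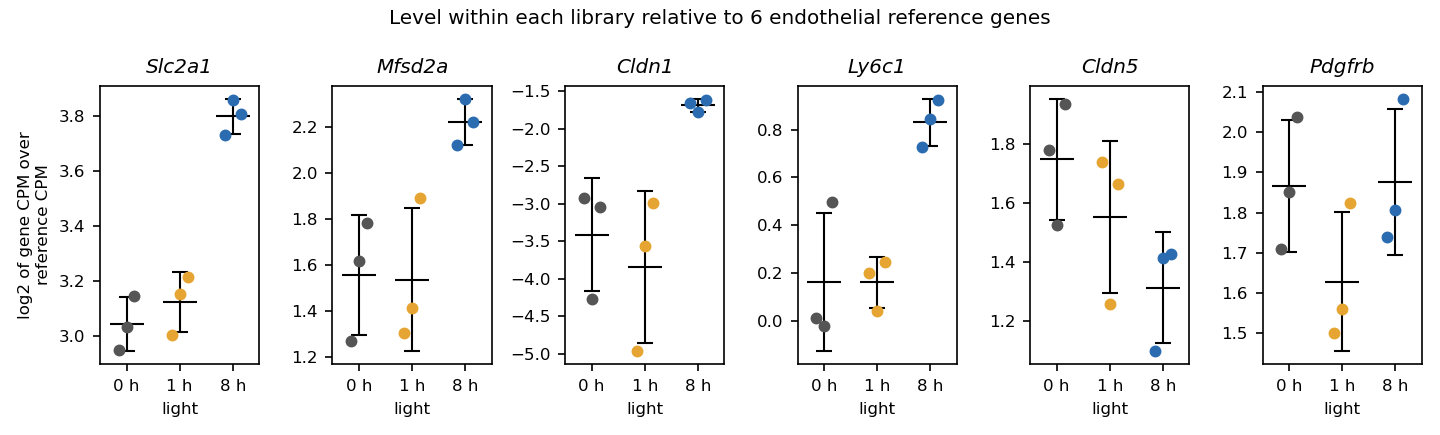
Log2 of a gene's CPM over the geometric mean CPM of 6 endothelial genes in the same library, for 6 genes by hours of light, with points for libraries, a bar for the mean and whiskers for the SD (n = 3); each panel has its own axis range. The 8 h points of Slc2a1 lie at 3.73 to 3.86, above all others.

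Of the 3 genes called between 8 h and 1 h, each lost its call when some single libraries were left out. Slc2a1 lost it without replicate 1 of 0 h (adjusted p = 0.0560), replicate 3 of 0 h (0.0546), replicate 1 of 1 h (0.126), replicate 3 of 1 h (0.147), replicate 1 of 8 h (0.113) or replicate 2 of 8 h (0.170). Mfsd2a lost it when replicate 1 (adjusted p = 0.167), 2 (0.0752) or 3 (0.129) of 1 h, or replicate 1 (0.101) or 2 (0.162) of 8 h, was left out. Of the 9 libraries left out in turn, only without 0 h replicate 2 did Cldn1 keep it (adjusted p = 0.0177), and otherwise had adjusted p-values up to 0.164. Over the 9 libraries left out in turn, the log2 fold change ran from 0.44 to 0.64 for Slc2a1, 0.45 to 0.65 for Mfsd2a and 1.55 to 1.99 for Cldn1. Without both libraries with the most Neurod6, the log2 fold changes were 0.56 for Slc2a1, 0.53 for Mfsd2a and 1.54 for Cldn1 (adjusted p = 0.102, 0.134 and 0.0515). At 8 h against 0 h, Slc2a1 passed with each of the 6 libraries left out in turn, with log2 fold changes from 0.56 to 0.73.

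The authors' deposited table for 8 h against 0 h called more of the 37 genes at an FDR under 0.05: 4 were higher and 1 lower, with 1.17% of its 20399 genes called. In the authors' deposited table Slc2a1 had a ratio of 1.57 (FDR 1.43e-07), Cldn1 of 3.16 (FDR 7.04e-04), Mfsd2a of 1.46 (FDR 0.00298) and Ly6c1 of 1.46 (FDR 0.0438). The authors' deposited table gave Cldn5 a ratio of 0.690 (FDR 0.0126). For 1 h, the authors' deposited table called 0 of the 37, with 0.075% of its 20011 genes called.

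Other genes with roles in vessels were looked at as 4 lists. The cells that held their RNA were not identified either, so the values below are not those of vessels alone. Mean levels at 0 h reached 1424 CPM for Spock2 and 504 CPM for Zic1, both in these lists, beside 15.4 CPM for Pecam1. Of 38 measured vascular signalling partners (growth factors, receptors and Wnt and Notch components), 0 passed in each of the 3 comparisons, and the median log2 fold change at 8 h against 0 h was -0.08. Their smallest p at 8 h belonged to Notch4, an endothelial Notch receptor (0.76 on the log2 scale, adjusted p = 0.131), and Fzd4, the receptor of Norrin and of Wnt ligands (0.45, adjusted p = 0.181). The growth factor gene Vegfa, chosen after its value was seen, had -0.06 ± 0.07.

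Of 53 other endothelial and barrier genes, 1 passed at 8 h against 0 h: Car4, a carbonic anhydrase on the surface of capillary endothelium. Car4 measured 40.2, 36.6 and 34.5 CPM at 0 h, 46.9, 45.0 and 43.2 CPM at 1 h, and 59.3, 53.2 and 47.8 CPM at 8 h. Its groups did not overlap in any comparison, and it rose by 0.53 ± 0.09 on the log2 scale at 8 h (adjusted p = 0.0357), with 0.28 ± 0.09 at 1 h (adjusted p = 1). The median of the list at 8 h was -0.06, and 0 of 52 passed at 1 h and 0 of 53 between 8 h and 1 h.

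Of 20 tested genes of endothelial activation and flow, 0 passed against 0 h at either time and 1 passed between 8 h and 1 h. This was Adamts1, a matrix protease, at 17.0, 14.1 and 16.8 CPM at 0 h, 35.4, 24.9 and 22.1 CPM at 1 h, and 11.8, 12.8 and 12.9 CPM at 8 h. The 1 h libraries were above all others and the 8 h libraries below all others. Adamts1 was lower at 8 h than at 1 h by a log2 fold change of -1.12 ± 0.16 (adjusted p = 0.00790), while the 0.78 ± 0.17 at 1 h against 0 h did not pass (adjusted p = 0.851). At 1 h against 0 h, 15 of the 20 activation and flow genes had a log2 fold change above 0, with a median of 0.19. Over all genes, 7724 of 15164 were above 0, with a median of 0.00. In edgeR, 5 of the 20, all higher, had an unadjusted p under 0.05. This is 25%, beside 3.2% of all genes (1.9% higher). At 8 h against 0 h the median of the 20 was 0.09. Of 26 other pericyte and basement membrane genes, 0 passed in the 3 comparisons. The smallest p at 8 h against 0 h belonged to Lamb1, a laminin chain (0.41 ± 0.09, adjusted p = 0.0853), and Mcam, an adhesion molecule of pericytes and endothelium (-0.36 ± 0.09, adjusted p = 0.124).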

How the data were processed

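Values came from the authors' deposited tables of genes higher and lower at 1 h and at 8 h against 0 h, which hold raw counts per gene for 9 libraries. The submitters' processing notes name BWA, edgeR 3.14.0 and the genome build GRCm38 (mm10), without their roles. Which program counted reads, on which annotation and with what strand setting was not given in the sources used here. For each library the deposited density, a signal made by the authors, was only checked. Over genes with many reads in the library, the density equals count over exonic length up to a constant, with a coefficient of variation of at most 0.0487%. Genes with few reads, Cldn1 among them, were not in this check. The authors' deposited CPM column was not used. The authors' fold change (a ratio of light over 0 h), p-value and FDR are quoted only as theirs. Exonic lengths and coordinates are those of the deposited tables. Symbols stored as dates (25) were restored by Entrez number. The tables hold only genes with 4 or more reads summed over a comparison's 6 libraries.

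Tests on counts used edgeR 4.0.16 in R 4.3.3 with quasi-likelihood fits (package defaults, TMM scaling, filterByExpr), two-sided, with Benjamini-Hochberg adjustment over all genes tested and a threshold of 0.05. The 1 h and 8 h comparisons against 0 h each used their own 6 libraries, and 8 h against 1 h used 1 fit of all 9. All 37 genes passed the filter in each comparison. The procedure was tested on simulated data. Levels are CPM with TMM-scaled library sizes, and RPKM where genes are compared with each other. Standard errors come from the log2 fold change divided by the root of F. P-values measure the spread between 3 libraries per group, which the labels give as independent samples from 3 mice.

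Genes given in full are those that passed, the 5 with the smallest p in each comparison, and the markers Cldn5, Pecam1, Cdh5, Slc2a1, Pdgfrb and Rgs5. Of the other lists, genes that passed are named or, where a list had none, the 2 with the smallest p at 8 h against 0 h. Others were chosen after their values were seen, and Slc16a1, Slc7a5 and Anpep, given in every library, are among them. The genes, lists, tests and named genes were chosen with earlier results of these data known. Alternatives were DESeq2 1.42.0, limma-voom (limma 3.58.1), other scalings, no filter, a replicate block, an endothelial covariate and leaving out libraries. Exon overlaps were read from a GRCm38 annotation, and promoter windows from RefSeq on GRCm38.p6, where 27 of the 37 genes matched.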

Additional observations from a re-analysis of the deposited data

Results flagged for a closer look

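In 3 of the 37 genes the level differed between the light times, tested as 8 h against 1 h in 1 edgeR fit of all 9 libraries. Both light times share the 0 h controls, and an effect of the time of day was not tested. The log2 fold change at 8 h against 1 h was 0.54 for Slc2a1, the glucose transporter GLUT1 (adjusted p = 0.0351). It was 0.56 for Mfsd2a, the lysophospholipid transporter, and 1.78 for Cldn1, a claudin (adjusted p = 0.0362 and 0.0422). In all 3 genes each of the 3 libraries at 8 h was above each of the 3 at 1 h. The Cldn1 value rests on 3 to 17 reads per library at 1 h.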

How the results depend on the processing

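Under the alternatives run, the median log2 fold change of the 37 genes ran from -0.05 to 0.04 at 1 h against 0 h, -0.06 to 0.07 at 8 h against 0 h and -0.13 to 0.06 at 8 h against 1 h, so each median crossed 0. Of the 111 values (37 genes in 3 comparisons), 40 changed sign in at least 1 alternative, and in edgeR the largest absolute log2 fold change among these was 0.157 and the smallest unadjusted p 0.292. The count of genes higher at 8 h against 0 h was 1, and it was 3 with no filter on low counts and with DESeq2, 2 with the other value of the legacy option of glmQLFit (chosen after seeing the data, since the value first listed is the package default), and 1 with each library left out. The count lower was 0, and it was 1 with DESeq2 (Cldn5) and 0 to 1 with a library left out. DESeq2 called 275 of 13277 genes with an adjusted p in this comparison, or 2.07%, beside 90 of 15330 in the edgeR fit; at 1 h it called 14 genes and edgeR 2. Between 8 h and 1 h, where edgeR called 94 genes and DESeq2 197, the count of genes higher was 3, and it was 0 without both libraries with the most Neurod6, where 24 of all 15742 genes were higher and 4 lower beside 79 and 15, and 0 to 3 with a library left out. Slc2a1 at 8 h against 0 h passed in 14 of 14 alternatives, with adjusted p from 9.15e-09 to 0.0453. The cause of the changed counts was not tested. For 8 h against 0 h, leaving out the libraries with the most Neurod6 is the same as leaving out 0 h replicate 2.

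Whether the replicate numbers pair the samples cannot be settled with 3 libraries per group. Deviations from the group means were correlated between libraries over 11413 genes. For libraries of the same number, correlations ran from -0.28 to 0.29 between 0 h and 1 h. They ran from -0.02 to 0.15 between 0 h and 8 h, and from -0.19 to 0.22 between 1 h and 8 h. For libraries of different numbers, the ranges in the same order were -0.20 to 0.37, -0.16 to 0.05 and -0.29 to 0.19. With the replicate number as a block, 3 genes were higher at 8 h against 0 h (Slc2a1, Mfsd2a and Cldn1), with 138 of all genes higher and 20 lower beside 81 and 9 without it, and Cldn1 did not pass between 8 h and 1 h (adjusted p = 0.0716).

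Depth limits Cldn1 most, with 3 to 65 reads per library. The floor of 3 reads is 0.133 to 0.524 CPM.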
